A study of Mus musculus with 6 samples.

Results

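Isolated unmethylated windows were single stretches of low CpG methylation in the genome of mouse embryonic stem cells (mESCs) that had clearly methylated stretches on either side. They were chosen in the table of methylation per 100-CpG window, sorted by chromosome and start, as windows of chromosomes 1 to 19 with a mean of the 6 libraries under 5% whose preceding and following rows both had a mean of 15% or more. The rule found 2988 windows, which were 0.867% of the 344780 autosomal windows and 56.2% of the 5314 autosomal windows under 5%. The whole table held 359192 windows. Of the other low windows, 1442 lay in runs, meaning that at least 1 adjacent row was also under 5%, and 884 had an adjacent row from 5% up to 15%.

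The study used E14TG2a mESCs of the 129/Ola strain at passages 5 to 28, grown on gelatin in serum with LIF, the cytokine that keeps them undifferentiated. All cells, in both groups, were labelled with the thymidine analogue EdU, fixed and stained for DNA content, and G1 and G2/M populations were sorted. There were 3 libraries of each phase, described as biological triplicates of 1 cell line, so the p-values below measure the spread between these libraries. EM-seq, an enzymatic method that reads methylated cytosines without bisulfite, was run on the DNA of each, and it does not separate 5-methylcytosine from 5-hydroxymethylcytosine. The question behind the design was whether methylation differs between cells about to divide and cells that have just divided.

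In mammals most CpG dinucleotides are methylated on both strands, and over time methylated CpGs mutate away. Stretches that stay unmethylated keep many CpGs and are known as CpG islands, and they lie at the promoters of most broadly expressed genes, where proteins with CXXC domains bind unmethylated CpG. After replication DNMT1, guided by UHRF1, restores methylation on the new strand, and TET enzymes oxidise it.

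The contrast between such a window and its flanks can be read from the bases. The sequences below are from the GRCm38 reference on the plus strand, 5′ to 3′, with every CG in capitals. The first set is shown because the window at the start of Cdyl2, a chromodomain gene, had the largest step of any isolated window with a protein-coding start: it was listed at 0% in all 6 libraries, with 77.7% in the row before it and 73.5% in the row after it. The window spans chr8:116732890-116733286. The stretch shown from it, at chr8:116733085-116733284, lies just upstream of the gene and holds 39 CpGs in 200 bases. The centre of the row before it, at chr8:116728933-116729132 in an intron of Cdyl2, holds 2, and the centre of the row after it, at chr8:116736317-116736516 outside any gene, holds 0.
Cdyl2 window: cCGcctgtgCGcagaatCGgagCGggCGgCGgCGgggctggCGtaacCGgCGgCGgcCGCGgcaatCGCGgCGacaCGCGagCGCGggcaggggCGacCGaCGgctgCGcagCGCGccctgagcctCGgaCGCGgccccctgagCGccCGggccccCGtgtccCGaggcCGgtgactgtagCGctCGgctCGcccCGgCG
row before it: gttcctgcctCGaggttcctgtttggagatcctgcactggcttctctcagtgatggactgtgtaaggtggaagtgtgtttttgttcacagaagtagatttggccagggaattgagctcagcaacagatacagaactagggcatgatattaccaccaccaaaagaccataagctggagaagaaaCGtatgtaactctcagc
row after it: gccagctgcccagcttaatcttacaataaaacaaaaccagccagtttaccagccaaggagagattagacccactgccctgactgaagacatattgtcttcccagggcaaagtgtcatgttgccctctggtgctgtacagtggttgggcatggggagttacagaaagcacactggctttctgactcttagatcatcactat

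Not every isolated window looked like this. The 3 further stretches shown here of 200 bases, each the part of its window outside annotated exons with the most CpGs, show lower densities, with 9 CpGs apiece. The first lies upstream of Sirt5, a mitochondrial deacylase gene, at chr13:43365290-43365489, in a window with neighbours at 73.4% and 73.6%. The second lies in an intron of Robo1, the gene for a Slit receptor of growing axons, at chr16:72664259-72664458, and stands for windows with no gene start within 5000 bp. The third lies in an intron of Ulk1, an autophagy kinase gene, at chr5:110808373-110808572, in the isolated window with the fewest CpGs per kb.
Sirt5 window: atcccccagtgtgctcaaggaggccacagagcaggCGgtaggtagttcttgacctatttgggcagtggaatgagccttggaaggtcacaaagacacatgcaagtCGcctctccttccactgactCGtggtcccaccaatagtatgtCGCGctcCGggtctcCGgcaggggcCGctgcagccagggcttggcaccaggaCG
Robo1 window: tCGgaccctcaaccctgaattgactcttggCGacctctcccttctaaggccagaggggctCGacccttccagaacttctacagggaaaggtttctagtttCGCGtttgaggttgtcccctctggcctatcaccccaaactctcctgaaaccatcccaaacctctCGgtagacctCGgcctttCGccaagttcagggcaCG
Ulk1 window: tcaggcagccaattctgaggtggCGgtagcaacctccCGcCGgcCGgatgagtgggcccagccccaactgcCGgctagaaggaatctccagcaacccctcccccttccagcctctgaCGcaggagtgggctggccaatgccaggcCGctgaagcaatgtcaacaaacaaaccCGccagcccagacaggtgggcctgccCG

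The isolated windows were short and rich in CpG. Their median length was 873.5 bp, against 5690 bp for all autosomal windows, because a window is cut by its number of CpGs. The median isolated window held 53 CpG dinucleotides of the reference, at 62.1 per kb, while the rows before and after had medians of 12.4 per kb and all autosomal windows 9.24 per kb. Median GC content was 59.5%, against 43.2% for all autosomal windows. The ratio of observed to expected CpG, which is low where CpGs have been lost, was 0.728 against 0.194. By the usual criteria of a CpG island, GC content over 50% and a ratio over 0.6, 70.2% of isolated windows qualified, compared with 64.8% of windows in runs and 1.32% of all autosomal windows. Windows in runs had a median density of 58.2 per kb.

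Across the autosomes, methylation was lower where CpG density was higher. Below 20 CpGs per kb, 102 of 321871 windows were isolated low windows, or 0.0317%. The share was 3.07% from 20 to 40 per kb and 27.9% from 40 to 60 per kb. From 60 per kb upward it stayed between 50.1% and 56.3%, and the share of windows in runs kept rising, from 20.3% to 28.8%. Windows at 15% or more made up 99.5% of the sparsest class and 3.42% of the class from 60 to 80 per kb, and none were left above 100 per kb. These shares describe the rule together with sequence and were not tested.

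**Figure D1:**
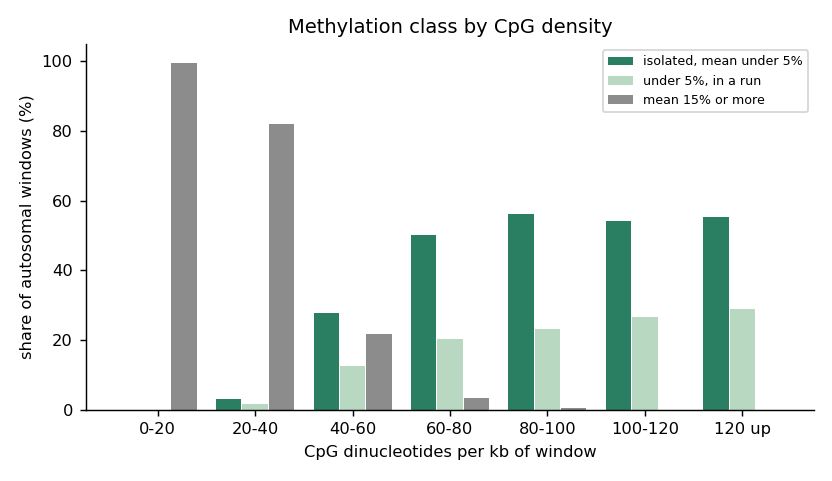
Share of autosomal windows (vertical axis, %) that were isolated low windows, low windows in a run, or at 15% or more, by CpG dinucleotides per kb of window (horizontal axis, 7 classes). Isolated windows made up 0.0317% of the sparsest class and over 50% of each class from 60 per kb upward; the windows not drawn were other low windows or lay from 5% up to 15%.

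Density and class did not match throughout. There were 420 autosomal windows at 15% or more whose density was at or above the lower quartile of the isolated windows, 43.4 per kb. Of these dense methylated windows, 58.8% met the CpG island criteria, but 88, or 20.95%, held a protein-coding gene start, against 45.7% of the isolated windows. The windows with the fewest CpGs went the other way. The Ulk1 window, chr5:110802390-110808828, was 6439 bp long with 8.23 CpGs per kb and a mean of 4.02%, between neighbours at 52.0% and 65.0%. A window in an intron of Tet2, the gene for one of the methylcytosine dioxygenases, had 10.0 CpGs per kb and a mean of 2.79%, with neighbours at 20.5% and 15.5%. The shortest isolated window, 257 bp at the start of Klf15, a gene for a Krüppel-like factor, held 51 CpGs, was listed at 0% in all 6 libraries and had neighbours at 22.8% and 19.1%. The longest, 9984 bp between genes at chr4:133093792-133103775, had a mean of 2.86%.

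Gene starts, the 5′ ends of GENCODE genes, lay in 1511 of the 2988 isolated windows, or 50.6%, and protein-coding starts in 1365, or 45.7%. Counting the start of any transcript raised the number to 2110, or 70.6%, and 2532, or 84.7%, had a gene start within 1000 bp. Windows in runs held a gene start in 37.0% of cases and a protein-coding start in 29.1%, and all autosomal windows in 10.97% and 4.16%. The 1365 windows held the starts of 1561 protein-coding genes, 10.0% of the 15609 protein-coding genes whose start fell in a measured autosomal window. In the 1178 windows with 1 protein-coding start, that start lay at a median of 37.9% of the way along the window, counted from its edge upstream of the gene. Starts on opposite strands shared 174 windows, 12.7% of those with a protein-coding start, against 10.5% in runs. Examples were Mcm4, a subunit of the replicative helicase, with Prkdc, a DNA repair kinase, at a mean of 0.650%, and Mbd4, a glycosylase that removes deaminated methylcytosine, with the ciliary gene Ift122, at 0% in all 6 libraries. Among genes of other kinds in isolated windows were 88 antisense RNAs, 50 lincRNAs and 24 miRNAs.

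The 8 isolated windows with a protein-coding start and the largest steps to their lower neighbour had neighbours between 65.5% and 77.7%. After Cdyl2 and Sirt5 came Acot4, a peroxisomal thioesterase gene whose window is nearly all exon, and then Rab6b, a Golgi GTPase gene listed at 0% in all 6 libraries. Ccnh, which encodes the cyclin H partner of the kinase CDK7, followed with 0% in 4 libraries, 0.457% in G1 replicate 3 and 2.44% in G2/M replicate 3. The dopamine receptor gene Drd1, the adhesion receptor gene Adgrg6 and the syntenin gene Sdcbp had means of 4.86%, 4.76% and 4.36%, and a wider spread. The Sirt5 window read 0%, 0% and 1.49% in G1 against 1.04%, 1.43% and 4.05% in G2/M. The Adgrg6 window ranged from 0% in G1 replicate 1 and G2/M replicate 1 to 15.4% in G2/M replicate 3. The 2 phases overlapped in both of these windows. In the Sdcbp window they did not, with 10.3%, 6.82% and 3.66% in G1 against 0%, 1.85% and 3.59% in G2/M, but it was not called (limma, adjusted p = 1).

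The groups of genes were unevenly represented. Mitochondrial ribosomal proteins, which build the ribosome of the organelle, had the highest share of starts in isolated windows among the 17 groups examined, 23 of 60 genes or 38.3%, with 4 in runs. Splicing factors had 7 of 25, cyclins and cyclin-dependent kinases 7 of 25, replication factors 10 of 38, proteasome subunits 6 of 25 and complex I subunits of the respiratory chain 6 of 28. All of these shares lay above the 10.0% of all measured protein-coding genes, and translation initiation factors, with 5 of 27, and replication-dependent histone genes, with 4 of 28, did too. So did the small groups of methylation writers, readers and erasers, with 2 of 14, and of Polycomb and Trithorax genes, with 2 of 16. The shares are descriptions, and no test of a group was run.

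Cytosolic ribosomal protein genes went the other way, with 3 of 49 in isolated windows, or 6.12%, and 13 of 49 in runs, or 26.5%. Polycomb and Trithorax genes, whose products keep genes silent or active through chromatin, had 2 of 16 in isolated windows and 5 in runs. Their share in isolated windows, 12.5%, lay above that of all genes, and their share in runs was 31.25%. Over all 15609 measured protein-coding genes, 2.99% started in runs and 76.0% in windows at 15% or more. Homeobox and other developmental transcription factors had 10 of 122 in isolated windows, 9.84% in runs and 60.7% at 15% or more. None of 14 measured pluripotency factors started in an isolated window, and 3 started in a run. None of 24 imprinted genes or of 992 olfactory receptor genes started in an isolated window either, and 1 imprinted gene started in a run. All 992 olfactory receptor starts lay in windows at 15% or more. Of 23 germline genes, 20 started in windows at 15% or more, 87.0% against the 76.0% of all genes, and 2 in isolated windows. Zfp genes, mostly zinc finger transcription factors, had 30 of 310, or 9.68%, close to the share of all genes.

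**Figure D2:**
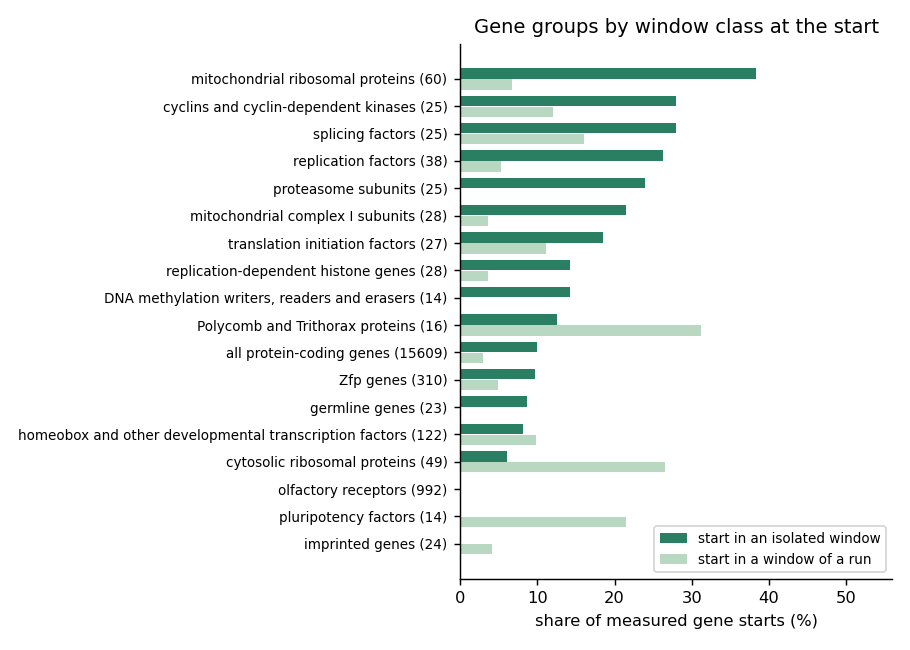
Share of measured gene starts (horizontal axis, %) that fell in an isolated window (dark bars) or in a window of a run (light bars), for 17 groups and all protein-coding genes, with the number of measured genes in brackets. Mitochondrial ribosomal protein genes were at 38.3% in isolated windows, and cytosolic ribosomal protein genes at 6.12%, with 26.5% in runs.

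The neighbours of the named members of these groups ranged widely. For the mitochondrial ribosome, Mrps33 had a mean of 2.38% between rows at 60.1% and 62.01%, and Mrpl42 a mean of 3.39% between 69.0% and 59.8%. Of genes matched as cytosolic ribosomal proteins, Rpl26 was at 0% in all 6 libraries between 29.7% and 33.7%, and the L7-like gene Rpl7l1 at 2.53% between 22.6% and 33.2%. For the proteasome, Psma1, an α subunit of the core, was at 1.38%, and Psmd14, the deubiquitinase of the lid, at 2.28%. Of genes matched as initiation factors, Eif2ak3 encodes the eIF2α kinase PERK rather than a factor and was at 0.0548%, and Eif2b3, a subunit of the exchange factor of eIF2, at 4.63%. The splicing genes Prpf31, whose window also holds the start of Tfpt, and Prpf4, which shares its window with Cdc26, were both at 0% in every library, and the rows beside Prpf4 were at 28.3% and 39.2%. Ndufb6 of complex I was likewise at 0%, and Ndufs5 at 2.41%.

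Genes of DNA replication and of DNA methylation itself were among them. Prim2, the large primase subunit, was at 0.362%, and Ccnq, a cyclin partner of CDK10, at 0.676%. Uhrf1, which guides DNMT1 to hemimethylated CpGs, was at 0% in all 6 libraries between rows at 52.6% and 21.9%. Uhrf1 and Mbd4 were the 2 of 14 genes of methylation writers, readers and erasers with a start in an isolated window, and 10 of the 14, 71.4%, started in windows at 15% or more, against 76.0% of all protein-coding genes. Of the Polycomb genes, Phf19, an accessory factor of the H3K27 methyltransferase, was at 0.126%. The homeobox gene Nkx1-2 was at 2.89%. Zfp655 and Zfp329 were at 0.720% and 3.05%, and the histone genes Hist1h2be and Hist1h4h at 1.57% and 0%. The germline genes were Smc1b, a meiotic cohesin subunit that shares its window with Ribc2, at 4.54%, and Tdrd6, a Tudor protein of spermatogenesis, at 2.57%. The Smc1b window was at 0% in G1 replicate 2 and between 4.24% and 7.08% in the other 5 libraries.

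The promoters gave a similar picture of common elements. RefSeq promoters on GRCm38.p6, from 250 bp before to 50 bp after the start, were searched on both strands, and 1769 of 31365 autosomal ones had their start in an isolated window. The GC box, GGGCGG, was in 69.1% of these, in 70.7% of 577 promoters starting in runs and in 36.0% of all. The ETS motif CCGGAAG was in 23.5% of the first, 17.5% of the second and 2823 of all, and the NRF1 motif, GCGC and GCGC with 2 bases between, in 15.1%, 14.4% and 6.34%. The YY1 motif AAGATGGCG was in 3.45% against 3.29% in runs and 1.39% of all, the CRE TGACGTCA in 3.73%, 3.81% and 1.83%, and the E-box CACGTG in 10.9%, 8.15% and 7.14%. The CCAAT box was in 40.8%, 44.2% and 37.3%. The TATA box, TATAAA, was less frequent, at 6.05%, 6.07% and 13.6%. Most of these motifs contain CG or are rich in G and C, as the windows are, so the shares describe base composition as well. No motif overlaps were removed.

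Windows far from any gene start made up a small class. For 265 isolated windows, 8.87%, no GENCODE gene start lay within 5000 bp, and 204 of these overlapped a gene. Only the 5′ end of each gene counted, so starts of other transcripts can lie inside. Of all isolated windows, 599 held a transcript start but no gene start. The mean methylation of the 265 windows was 2.05%, from 1.76% to 2.57% in the single libraries. Over the 1365 windows with a protein-coding start it was 1.22%. The 265 windows held 52.2 CpGs per kb at the median, and 31 of them were listed at 0% in all 6 libraries. The window in Robo1, 355269 bp from the gene's annotated start, had a mean of 2.95% between rows at 69.0% and 71.9%. Annotated exons covered 47.3% of this window, and untranslated regions 43.1%. A window between genes at chr13:110018553-110020568, 260428 bp from the nearest protein-coding start, Rab3c, was at 1.03% between 66.4% and 66.0%. A window within an exon of Bcl11b, a zinc finger factor of T cell development, was at 0.750%, and one in Rgl1, a Ral exchange factor gene, at 1.58%. Untranslated regions covered 35.1% of the Rgl1 window.

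The level within the isolated windows was chosen by the rule and is given without a test. The mean over the 2988 windows was 1.32%, 1.33% and 1.59% in G1 replicates 1 to 3 and 1.32%, 1.36% and 1.61% in G2/M replicates 1 to 3. The third replicate was therefore the highest in each phase. Its mean over both phases was 1.20 times that of the other replicates in isolated windows, 1.14 times in the adjacent rows and 1.12 times over all autosomal windows. In every library the median isolated window was listed at 0%, and between 56.1% and 63.4% of the windows were. Of the 2988 windows, 735 were at 0% in all 6 libraries, 262 in none, and 1607 had a mean under 1%. The file gives percentages without counts, so a listed 0% states that no methylated call was recorded among a number that is not given. The study's minimum share of observed CpGs per window sets a floor for that number. In 18 windows at least 1 library reached 15% or more.

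Windows near the limits show how fine the choice was. The window at the start of E330009J07Rik had a mean of 4.99832% and was kept, while one in Myo18a at 5.00201% was not. The window at the start of Cstf3, a cleavage stimulation factor gene, was kept with a neighbour at 15.0031%, and one in Zc3h13 was not, with a neighbour at 14.9834%. Taken in each library alone, the rule was met by 82.2% to 85.2% of the members, and by 1487 of them, 49.8%, in every one of the 6.

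The choice could be checked in libraries it did not use. The paper speaks of matched replicates, however, so libraries of the other phase may share cultures and not be independent. When the rule was applied to the mean of the 3 G1 libraries alone, it found 3028 windows, and 2689 of them, 88.8%, were under 5% in the mean of the G2/M libraries. In the other direction 3024 windows were found in G2/M, and 2661 of them, 88.0%, were under 5% in G1. The same 2532 windows met the whole rule in both phases, so this count is 1 result and not 2. The mean in the phase not used was 1.85% in both directions, against 1.35% in G1 and 1.402% in G2/M where the windows had been chosen.

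The rows on either side were chosen to be at 15% or more, and their mean was 44.4%. The lower of the 2 neighbours had a median of 34.1% and the higher 54.9%. Of the isolated windows, 512 had both neighbours at 50% or more. The next row in the table was not always the next stretch of DNA, since windows with too few CpGs observed are not listed. For 1650 windows, 55.2%, both rows lay within 100 bp, and for 584 a gap of over 1000 bp lay on at least 1 side. The methylation of those gaps is not known from the table.

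Beyond the adjacent rows the level recovered quickly and then stayed below the autosomal mean. Rows 2 to 10 on either side, whose centres lay at medians of 7598 to 46966 bp, had means of 58.3% to 59.6%, while all autosomal windows averaged 63.8%. Of these rows, 4.88% were themselves isolated windows or lay next to another one, and so were chosen by the rule. Without them the rows averaged 60.5%. All rows together had a median density of 11.02 CpGs per kb. Autosomal windows weighted to the same CpG density averaged 62.2%, and the rows differed from these by -3.73 to -2.93 percentage points in the 6 libraries. Without the rows chosen by the rule, the differences were -2.82 to -1.99 percentage points.

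The flanks were not alike along the gene. In the 1191 windows with protein-coding starts on 1 strand only, the row on the upstream side averaged 48.1% and the row on the gene's side 43.0%. The gene's side was lower in all 6 libraries, with differences from -5.69 to -4.38 percentage points, and it was the higher of the pair in 468 windows, 39.3%. The rows on the gene's side were shorter, with a median of 3958 bp against 4629 bp, and had 13.1 CpGs per kb against 11.2. From row 2 to row 5 the order was the opposite. Rows 2 to 5 into the gene had means from 60.7% to 61.5%, and rows 2 to 5 upstream had means from 57.4% to 58.9%. At rows 9 and 10 the sides were close, at 58.93% and 59.4% into the gene and 58.97% and 59.9% upstream.

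**Figure D3:**
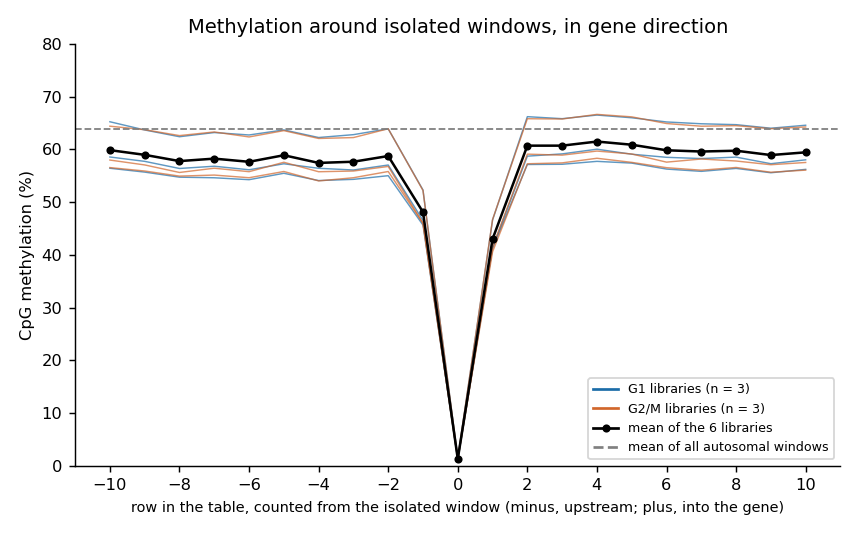
Mean CpG methylation (vertical axis, %) of the 1191 isolated windows with protein-coding starts on 1 strand and of 10 rows of the table on each side, drawn in the direction of the gene, with a line for each library and for their mean. The level fell to 1.28% at the isolated window, was 48.1% in the row upstream and 43.0% in the row on the gene's side, and the mean of the libraries stayed below the autosomal mean of 63.8% in all rows drawn.

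Between the phases no difference beyond the spread of the libraries was found in the isolated windows. The rule averaged all 6 libraries without regard to phase, and its limit of 5% bounds the size that a difference could have. G1 libraries had a mean of 1.41% ± 0.155 and G2/M libraries one of 1.43% ± 0.156 (SD, n = 3 each), and G1 minus G2/M was -0.0156 percentage points (two-sided exact permutation test over 20 labelings, p = 0.6). Left out singly, G1 replicate 1, G1 replicate 2 and G2/M replicate 3 turned the sign, to 0.0307, 0.0276 and 0.0738 percentage points. With 3 libraries against 3, this test cannot give a p below 0.1. In the adjacent rows the G1 mean was 44.5% ± 3.30 and the G2/M mean 44.3% ± 3.51 (SD, n = 3 each), so that G1 minus G2/M was 0.147 percentage points (exact permutation p = 1). The difference between phases in the adjacent rows minus that in the isolated windows was 0.163 percentage points (exact permutation p = 0.9), and it ranged from -1.64 to 2.10 with 1 library left out. Windows in runs were at 1.36% and 1.35%, and their difference minus that of the isolated windows was 0.0233 percentage points (exact permutation p = 0.7). All 3 G1 libraries lay above all 3 G2/M libraries in 66 isolated windows, 2.21%, against a background of 4.12% of all windows in the table. They lay below in 64, 2.14% against 1.98% of all windows. A window listed at 0% in 4 or more libraries cannot separate the phases in this way. There were 394, 510 and 735 isolated windows at 0% in 4, 5 and 6 libraries. Each library listed 56.1% to 63.4% of the isolated windows at 0%, against 0.896% to 1.04% of all autosomal windows. The shares of isolated windows and of all windows are therefore not directly comparable.

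**Figure D4:**
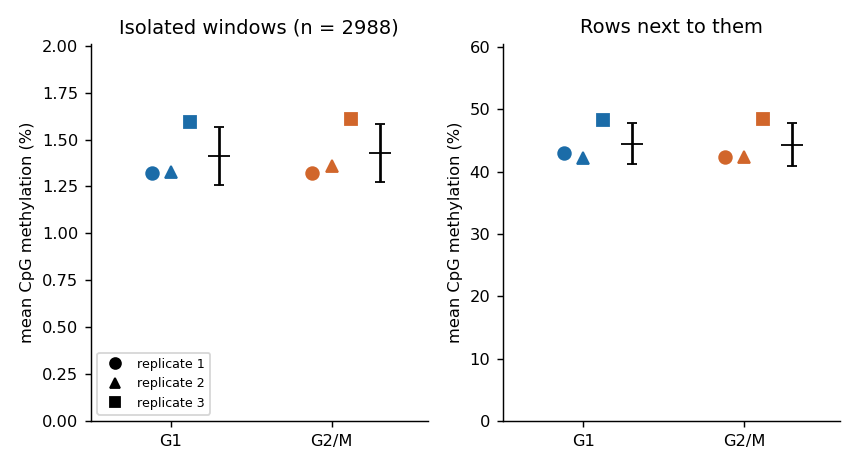
Mean CpG methylation (vertical axes, %) of the isolated windows (left) and of the rows next to them (right) in each library, by phase and replicate, with the mean and SD of the 3 libraries as bars. G1 and G2/M overlapped in both panels, and replicate 3 was the highest of each phase, at 1.59% and 1.61% in the isolated windows.

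In these libraries the difference between phases was smaller in the surroundings of the isolated windows than over all autosomal windows, but not beyond a threshold of 0.05. All autosomal windows averaged 64.3% in G1 and 63.4% in G2/M, a difference of 0.844 percentage points (two-sided exact permutation test, p = 0.7), and rows 2 to 10 averaged 58.98% and 58.91%, a difference of 0.0768 percentage points (exact permutation p = 0.9). The mean of the surroundings minus that of all autosomal windows was -5.57, -5.15 and -5.08 percentage points in the 3 G1 libraries and -4.64, -4.28 and -4.58 in the 3 G2/M libraries. The groups did not overlap, with every G1 library lower. The means were -5.27 ± 0.266 and -4.50 ± 0.193 (SD, n = 3), a difference of -0.767 percentage points (exact permutation p = 0.1, the smallest value that this design allows). Against autosomal windows weighted to the same CpG density the difference was -0.517 percentage points, and the groups again did not overlap (exact permutation p = 0.1). Without the rows chosen by the rule, the difference against all autosomal windows was -0.761 percentage points and that at the same CpG density -0.523, again with no overlap (exact permutation p = 0.1 for each). This comparison was added after the values of single rows had been seen.

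**Figure D5:**
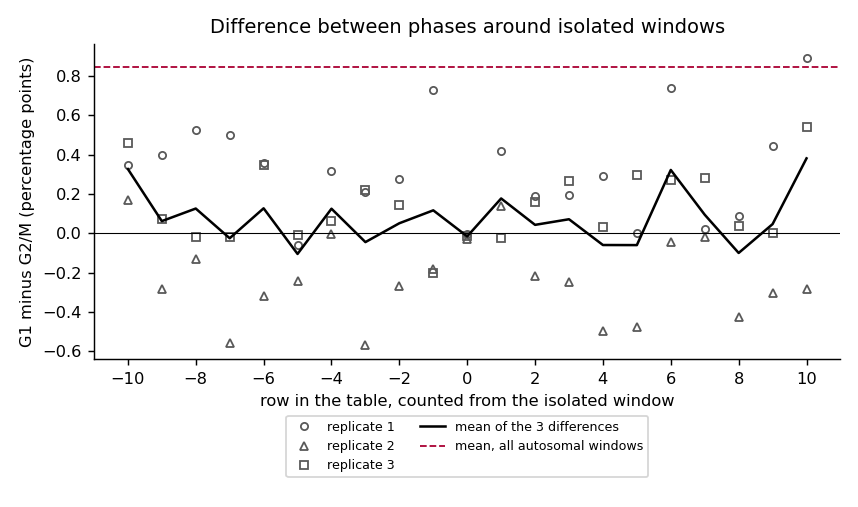
Difference in mean CpG methylation between G1 and G2/M (vertical axis, percentage points) in the isolated windows and in 10 rows on each side, with a symbol for each replicate number, a line for their mean and a dashed line for the mean over all autosomal windows. The mean difference ranged from -0.105 to 0.381 percentage points over the 21 rows drawn, below the 0.844 of all autosomal windows.

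Single windows were tested with limma on a log2 ratio of methylated to unmethylated percentage, each with 1 percentage point added, over all 359192 windows. With Benjamini-Hochberg adjustment, 8 windows, 0.00223% of those tested, had an adjusted p under 0.05, and 3 of these were isolated windows. At an unadjusted p under 0.05 there were 355 isolated windows, 11.9%, against 2.11% of all windows. On the percent scale that share was 3.78%, against 2.21% of all windows. Among windows with a mean of 1% or more it was 19 of 1381 isolated windows, 1.38%, against 2.34% of all, so the higher share did not hold without the windows closest to 0%. With 1 library left out at a time, between 12 and 25 isolated windows had an adjusted p under 0.05 (limma). Over all windows tested, between 26 and 46 did. The number of calls was thus unstable. With every omission it rose from 3 among the isolated windows and from 8 over all windows.

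Each of the 3 windows had 1 phase listed at 0% in all of its libraries. The window of Prpf4b, a kinase of the spliceosome, at chr13:34874328-34875493, read 0% in every G1 library and 5.07%, 5.88% and 4.08% in G2/M, a log2 difference of -2.65 (limma, adjusted p = 0.0133). The window of Bivm, at chr1:44118915-44120334, read 2.08%, 2.08% and 2.63% in G1 against 0% in every G2/M library, a log2 difference of 1.74 (limma, adjusted p = 0.0243). The window of Pcgf1, the gene for a RING finger subunit of a variant Polycomb complex, at chr6:83077415-83078231, read 0% in every G1 library and 1.82%, 1.79% and 2.08% in G2/M, a log2 difference of -1.56 (limma, adjusted p = 0.0243). None of the 3 calls held on the percent scale, with an offset of 5 percentage points or without the trend in limma's variance, and over all alternatives their adjusted p ranged from 0.00949 to 1. With 1 library left out, the adjusted p of the 3 windows stayed between 0.00949 and 0.0424 (limma).

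The largest differences between phase means, among windows where all 3 same-numbered libraries differed the same way, were not called. A window in Rai1 read 14.3%, 9.09% and 2.22% in G1 against 1.09%, 0% and 0% in G2/M. One in Mpped2 read 11.5%, 5.71% and 4.17% in G1 against 0%, 0% and 0.901% in G2/M. In the other direction, a window in Tifa, 52 bp from its annotated start, read 0%, 0% and 2.50% in G1 against 2.50%, 6.10% and 15.2% in G2/M. A window between genes 5896 bp from the start of Akna read 2.94%, 1.43% and 0% in G1 against 10.8%, 4.76% and 9.70% in G2/M. The phases did not overlap in the Rai1, Mpped2 and Akna windows, and they met at 2.50% in the Tifa window. The lowest adjusted p of the 4 was 0.569 (limma), for Mpped2.

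The windows that varied most between replicate numbers differed in the same way in both phases. A window 29431 bp from the start of Rbfox2, between genes at chr15:77336435-77338603, read 17.4% and 11.1% in the second replicates of G1 and G2/M and at most 1.16% in the other 4 libraries. The window at the start of Neat1, the long noncoding RNA of paraspeckles, read 16.0% and 12.5% in the third replicates and 0% in the other 4. They were chosen for this spread out of all isolated windows.

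Isolated windows lay on every autosome, from 87 on chromosome 16 to 249 on chromosome 2, and made up between 0.569% of windows, on chromosome 14, and 1.23%, on chromosome 11. The distance from one to the previous one on the same chromosome had a median of 276114 bp, and 171 pairs lay within 20 kb of each other.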

How the data were processed

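The data were EM-seq libraries of sorted mESCs, 3 from G1 and 3 from G2/M. The submitters' processing notes name bcl2fastq 2.19.1, FastQC 0.11.7, MultiQC 1.7, Trim Galore 0.6.4, Bowtie2 and Bismark 0.22.1, with GRCm38/mm10. Per the methods, duplicate reads, poorly mapped reads and regions with outlying read numbers were removed, and windows entered where enough CpGs were observed in every library compared. The authors deposited the percent of methylated CpG for each 100-CpG window in each library, without counts or coverage, so depth is unknown, no interval could be given and the logistic regression of the study was not repeated. No normalization between libraries is stated.

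Windows were placed on GRCm38.p6 with GENCODE vM21 genes. Of 344780 autosomal windows, 99.6% began at a CpG of this sequence. Levels were means over windows per library, and the phase comparison was an exact two-sided permutation test with 20 labelings. For single windows limma 3.58.1 was run under R 4.3.3, with lmFit and a trended eBayes, on log2((percent + 1)/(100 - percent + 1)) over all 359192 windows. That step was first tested on simulated data. Other steps ran in Python 3.11.15 with pandas 2.3.3, numpy 2.4.6 and scipy 1.17.1, and plots were drawn with matplotlib 3.10.9. The members, gene groups, motifs and tests were chosen with earlier results of these data known. Windows were named by the largest step to their lower neighbour (8 with a protein-coding start, 4 far from starts, up to 2 per gene group), the largest or most significant phase differences, the largest range between replicate numbers, length, CpG density and the limits of the rule. Windows on chromosome 18 were not named, and 1 window that the rule names is not reported here.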

Additional observations from a re-analysis of the deposited data

How the results depend on the processing

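The number of isolated windows stayed within 1.5 times 2988 with a limit of 10%, with a limit of 2%, and when chosen in G1 or in G2/M alone, ranged from 2972 to 3015 with 1 library left out, and was 1650 with both rows within 100 bp and 1815 with neighbours at 30% or more. The share holding a gene start was 59.7% with both rows within 100 bp, 45.7% for protein-coding genes, 70.6% for transcript starts and 84.7% within 1000 bp. The phase difference in isolated windows was 0.0946 percentage points without windows listed at 0% in any library, and ranged from -0.105 to 0.0738 with 1 library left out, so its sign rests on single libraries. That of the adjacent rows minus isolated windows was -0.0142 with medians and ranged from -1.64 to 2.10 with 1 library left out. That of run windows minus isolated windows ranged from -0.00876 to 0.0566 with 1 library left out, and was 0.0940 with rows within 100 bp (exact permutation p = 0.1) and 0.157 without windows listed at 0% in any library. That of the surroundings minus all autosomal windows kept its sign in every alternative run and ranged from -0.862 to -0.615 with 1 library left out. No exact permutation test gave a p under 0.05 in any alternative, and none could with these numbers of libraries. The 3 limma calls among isolated windows became 0 with an offset of 5 percentage points, the percent scale, no trend, libraries centred on their medians, windows with a mean of 1% or more and the replicate block. In that order, 298, 113, 211, 168, 19 and 459 isolated windows had an unadjusted p under 0.05 (limma). They were 9.97%, 3.78%, 7.06%, 5.62%, 1.38% and 15.4% of the isolated windows tested. The shares of all windows tested were 2.16%, 2.21%, 2.16%, 4.90%, 2.34% and 4.83%. With 1 library left out, the calls among isolated windows numbered from 12 to 25 and those over all windows from 26 to 46. The count therefore depends on each library. The study speaks of matched replicates, but the labels give only shared numbers. Deviations of same-numbered libraries from the phase means correlated at 0.0278 to 0.0567 across autosomal windows, higher than for other numbers. Across the isolated windows the correlations were 0.0370, -0.00191 and 0.0629 for numbers 1, 2 and 3. There G1 replicate 1 with G2/M replicate 2, at 0.0189, lay above number 2. Such deviations sum to 0 within a phase, so positive same-number values go with negative ones for other numbers. Over all autosomal windows G1 was higher at each number, by 1.247, 0.610 and 0.675 percentage points (exact sign-flip p = 0.25). With same-numbered libraries as pairs, exact sign-flip tests, whose smallest p is 0.25, gave p = 0.25, 0.75, 0.25 and 0.25 for the 4 differences above, in that order, with values of -0.0156, 0.163, 0.0233 and -0.767, and the replicate block in limma left 0 calls among isolated windows. Depth limits every listed 0%, since the number of calls behind it is not given.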
